A study of Mus musculus with 8 samples.

Results

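Amino acid transporter genes were followed in leukaemic spleen cells of 4 mice, sorted into a fraction high in c-kit and one with low or absent c-kit. Genes were chosen by symbol: every gene named Slc1a, Slc3a, Slc6a, Slc7a, Slc36a, Slc38a or Slc43a with a number, which gave 63 of the 18193 named genes on the array. Of these 63, 60 encode carriers or their heavy chains, and 3 match the pattern by name alone (Slc7a6os, Slc6a19os and Slc36a1os). The 63 genes had 125 probe sets, the groups of short probes that each measure 1 transcript, and the brightest one, by its mean over the 8 arrays, stood for the gene.

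Per the labels, c-kit-positive bone marrow cells carrying the MLL-AF10 fusion after retroviral transduction had been immortalised in culture and transplanted into syngeneic CD57BL/6 mice (spelled as the labels do) after sub-lethal irradiation. Spleen cells of each leukaemic mouse were sorted on surface c-kit (CD117) into a high fraction, CD117pos, and a low or negative fraction, CD117neg. All 8 arrays, 4 CD117pos and 4 CD117neg, therefore came from cells of leukaemic, irradiated hosts, whose own blood cells may remain in the spleen, and there was no array of normal cells. The sources used here give no ages and do not say whether each leukaemia arose from a transduction of its own. The mice are called _948, _951, _952 and _953 after the endings of the array titles, and values by array follow this order throughout.

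Amino acids cross membranes mostly through carriers. Exchangers of the Slc7 family work as a light chain bound to a heavy chain of the Slc3 family, which brings it to the cell surface, whereas the cationic carriers of the same family act alone. Slc1 carriers depend on sodium, and most of them carry glutamate, the others neutral amino acids such as glutamine. Slc38 carriers use the sodium gradient to concentrate glutamine and other neutral amino acids. Slc36 carriers such as Slc36a1 use protons. Slc43a1 and Slc43a2 let large neutral amino acids pass along their gradient, while Slc43a3 is known in human cells as a carrier of purine bases. The Slc6 family carries neurotransmitters, osmolytes such as taurine, and some amino acids. Dividing blood cells draw leucine, glutamine and arginine through a few of these carriers, and the kinase complex mTORC1 senses the amino acids that reach the lysosome.

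Kit, the sorted receptor (Entrez gene 16590), serves as the check of the labels, with intensities of 754, 741, 599 and 909 in the CD117pos arrays, against 28.7, 39.2, 15.7 and 30.9 in the CD117neg arrays. Its 2 fractions did not overlap. Array medians were 27.5 to 31.1 in CD117pos and 31.1 to 32.8 in CD117neg arrays. The CD117pos array of mouse _951 stood apart. Its log2 intensities correlated with those of the other CD117pos arrays at 0.928 to 0.930, while all other pairs of arrays of 1 fraction correlated at 0.978 to 0.988. Its signal ratio of 3′ to 5′ control probes, which rises as RNA is shortened, was 5.44 for Gapdh, against 2.56 to 2.77 in the other CD117pos and 2.76 to 3.23 in the CD117neg arrays. The results that rest on that array are given with and without it. Of 14 genes of myeloid identity, 3 were higher in CD117pos and 7 lower. Mpo, an enzyme of early granules, measured 8583 ± 1656 in CD117pos and 1868 ± 461 in CD117neg arrays, whereas Csf1r, the receptor of the monocyte growth factor, measured 920.3 ± 603 in CD117pos and 7600.0 ± 1018 in CD117neg arrays and Itgam, a myeloid integrin, 76.6 ± 46.0 in CD117pos and 488 ± 395 in CD117neg arrays.

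Markers of maturation moved with the fraction. Of 14 markers of mature monocytes and neutrophils, 13 were lower in CD117pos and 0 higher, and their summed intensity was 13934 to 32677 in CD117pos, against 74075 to 81648 in CD117neg arrays. The part of this in the transporter differences was not tested, and in sorted bulk fractions fewer cells of a type and less RNA per cell cannot be told apart. Markers of other spleen cells were mostly dim in both fractions. This held for 13 of 15 erythroid, 8 of 12 T cell, 9 of 11 B cell, 8 of 8 NK cell, 6 of 8 megakaryocyte and 8 of 12 stromal and endothelial markers, each with means under 50 in both. Among them were Klf1 and Hba-a1, Cd3d and Cd3e, Cd79a and Ms4a1, Ncr1, Pf4, and Cdh5. Past the threshold given below, Nfe2, Cd28, Cd22, Vwf, Itgb3, Pecam1 and Cxcl12 were lower in CD117pos, and Rhd and Klra8 higher. Mean intensities in CD117pos and then CD117neg arrays were 17.2 and 326 for Cd22, 21.5 and 629 for Cxcl12, 42.0 and 184 for Cd28, and 99.9 and 61.2 for Rhd. Summed intensities in CD117pos and then CD117neg arrays were 1271 to 1484 and 2692 to 3327 for erythroid markers, which Nfe2, a gene of myeloid cells too, dominated. They were 238 to 1671 and 369 to 721 for T cell markers. They were 271 to 386 and 565 to 854 for B cell markers, 107 to 161 and 109.7 to 126 for NK cell markers, 181 to 204 and 234 to 342 for megakaryocyte markers, and 261 to 967 and 584 to 1386 for stromal and endothelial markers. The highest T cell sum was that of the CD117pos array of mouse _951. In that array Themis measured 739, Cd8a 537 and Zap70 271, against 26.0 to 27.3, 32.1 to 102 and 55.5 to 88.5 in the other CD117pos arrays, while Cd3d stood at 1 and Cd3e 4.96. Genes of other kinds stood far above the other CD117pos arrays there too, such as Pdgfrb (551, against 12.3 to 24.1) and Gss (1096, against 127 to 138). The part of the T cell genes in the values of that array was not tested.

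Differences are CD117pos minus CD117neg on the scale log2(intensity + 16), which understates the change of dim genes. They were tested across all named genes with limma, with the mouse as a block and an adjusted p under 0.05 as threshold. Of the 63 transporter genes, 9 passed, which is 14.3%, while 22.1% of all named genes passed. Higher in CD117pos were 4 (Slc7a5, Slc1a5, Slc7a1 and Slc43a3), where 8.27% of all genes were higher. Lower were 5 (Slc7a7, Slc6a6, Slc38a6, Slc43a2 and Slc38a9), where 13.8% of all genes were lower. The share of transporters that passed was below that of all genes, so the counts set the family apart in neither direction. The median difference was -0.024 over the 63 genes and -0.011 over all genes. Many members were dim: 40 of 63 had a mean intensity under 50 over the 8 arrays, and 36.5% of the members, against 54.7% of all genes, reached that mean. In the fit restricted to genes that reached it, 10 of 23 members passed, where 43.1% of all genes did. How many calls fell on either side depended on scaling: after quantile normalisation 6 members were higher and 5 lower, and after centring on array medians 5 and 5. It also depended on the animals: 0 were higher and 3 lower without mouse _948, 6 and 6 without _951, 1 and 3 without _952, and 1 and 3 without _953.

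**Figure D1:**
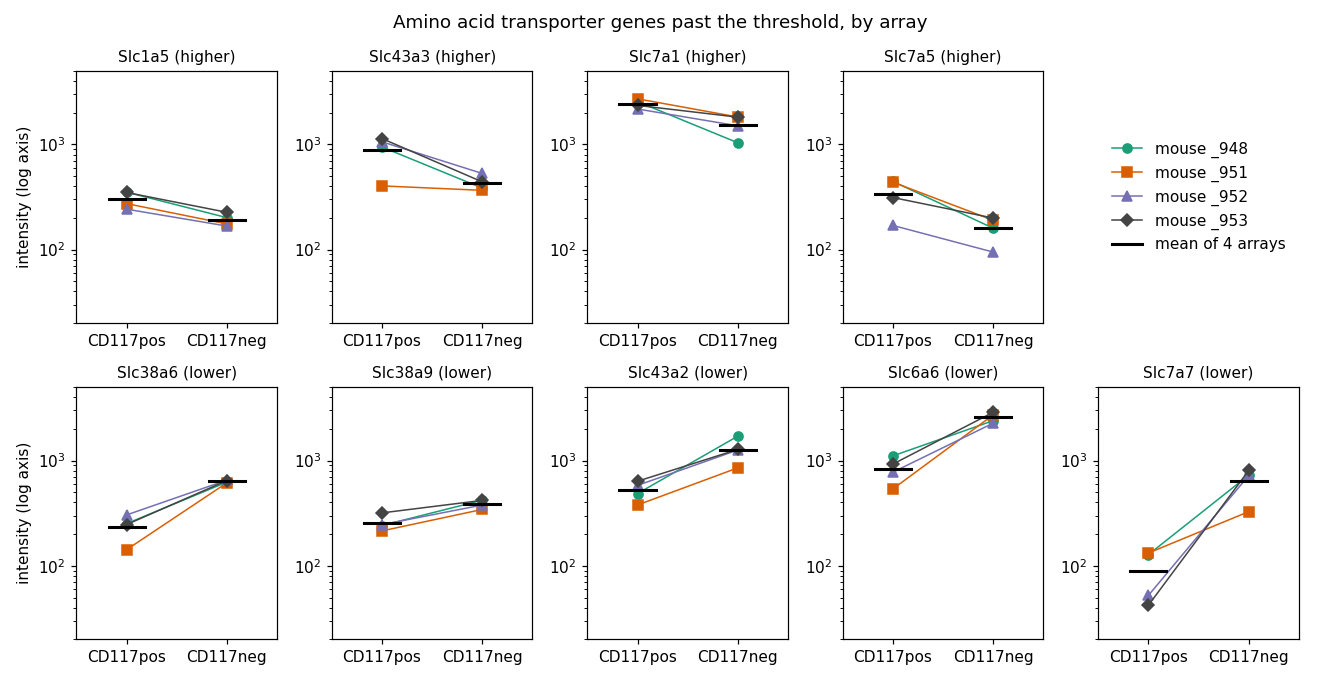
Intensity (vertical log axis) of the 9 transporter genes past the threshold, 1 panel per gene, with CD117pos arrays on the left and CD117neg arrays on the right. Points of 1 mouse share a marker and are joined by a line, black bars are means of 4 arrays, and all 4 lines of each panel run the same way.

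Among light chains of the heterodimeric exchangers, the 2 genes that passed moved in opposite directions. Slc7a5 (Entrez gene 20539), the LAT1 light chain that takes up leucine and other large neutral amino acids in exchange for glutamine, had intensities of 444, 437, 169.6 and 312 in the CD117pos arrays, against 159.6, 189.7, 94.6 and 199 in the CD117neg arrays. Every mouse had more in its CD117pos array, but the ranges of the fractions overlapped, since the CD117pos array of mouse _952 lay below 2 of the CD117neg arrays. The difference was 0.97 ± 0.17 (SE, n = 4 mice; limma, adjusted p = 0.0126), a 1.96-fold rise. The call ended without mouse _948 (adjusted p = 0.0596), without the mouse block (adjusted p = 0.0653), and without both the block and the CD117pos array of mouse _951 (adjusted p = 0.0985).

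Slc7a7 (Entrez gene 20540), the y+LAT1 light chain that exports arginine and lysine in exchange for neutral amino acids, showed the largest difference of any member. Its intensities were 128, 132, 52.4 and 42.3 in the CD117pos arrays, against 728, 327, 722 and 806 in the CD117neg arrays. The fractions did not overlap, and mouse _951 had the lowest CD117neg value. Slc7a7 fell by 2.71 ± 0.44 on the log2 scale (limma, adjusted p = 0.0107), to a 6.53-fold lower level, and its other probe set differed by -1.03 ± 0.16 (adjusted p = 0.0116 over all probe sets). Within mice _948, _951, _952 and _953 the difference was -2.37, -1.21, -3.43 and -3.82. Adjusted p was 0.053, 0.0559 and 0.053 on leaving out mouse _948, _952 or _953, where the difference lay between -2.82 and -2.34.

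Of the 5 genes past the threshold with promoter windows in RefSeq, Slc7a7 is the one with the composite element bound by C/EBP and ATF factors, through which Atf4 acts on genes of amino acid supply. The element was searched as TGATG, any base and AA, on both strands, in RefSeq windows from 250 bases before to 50 after each transcription start (build GRCm38.p6). The sequences below show it, in capitals, in Slc7a7, in Slc7a11, the light chain of the cystine and glutamate exchanger, and in Nupr1, the listed gene of the Atf4 response with the largest fall. Slc7a7 is given at chr14:54417938-54418194, Slc7a11 at chr3:50443613-50443719 and Nupr1 at chr7:126625533-126625620, each 5′ to 3′ on the minus strand of the genome, along which all 3 genes run.
Slc7a7: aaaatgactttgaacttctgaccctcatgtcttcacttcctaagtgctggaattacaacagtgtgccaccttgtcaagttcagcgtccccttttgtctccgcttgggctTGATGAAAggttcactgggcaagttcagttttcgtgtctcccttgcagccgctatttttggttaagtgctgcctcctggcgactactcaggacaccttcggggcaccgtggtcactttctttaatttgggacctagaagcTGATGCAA
Slc7a11: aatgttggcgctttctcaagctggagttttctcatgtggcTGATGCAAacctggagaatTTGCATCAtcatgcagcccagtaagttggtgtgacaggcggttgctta
Nupr1: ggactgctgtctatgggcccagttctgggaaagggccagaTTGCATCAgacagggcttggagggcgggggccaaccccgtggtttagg

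Of the 63 members, 46 matched the RefSeq table, with 67 windows. Of these windows, 5, in 4 genes, held the element (7.46%), against 3.97% of all 32851 windows. In the Atf4 response list, 7 of 26 windows held it (26.9%). Slc7a7 had 2 such windows, which share 1 of its sites. Slc1a4 and Slc6a21 were the other members with a site. The E-box CACGTG, the letters read by Myc and by the lysosomal regulators Tfeb and Tfe3, stood in 9 member windows (13.4%), against 7.15% of all windows, and in 0 of the 11 windows of members past the threshold. Slc7a5, Slc1a5, Slc43a3 and Slc6a6, also past the threshold, had no window, so neither motif was searched in them. No match of one motif overlapped one of the other. These are matches of letters only.

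The 8 other light chains did not pass, with differences of -0.58 to 0.92. Slc7a6, the y+LAT2 light chain, had 175, 914, 249 and 214 in the CD117pos arrays, against 148, 180.3, 139 and 155 in the CD117neg arrays. Each mouse had more in CD117pos, but the CD117pos array of mouse _951 stood far above the others. The difference did not pass, with 0.92 ± 0.35 (adjusted p = 0.125) over all mice and 0.47 (adjusted p = 0.065) without mouse _951. Slc7a11, chosen after its values were seen, measured 46.0 ± 18.04 in CD117pos and 76.0 ± 31.4 in CD117neg arrays (adjusted p = 0.216). The heavy chain of LAT1 and of both y+LAT carriers, Slc3a2 (CD98 heavy chain, Entrez gene 17254), measured 534, 310.0, 396 and 374 in the CD117pos arrays, against 467, 576, 499.5 and 530.3 in the CD117neg arrays. The fractions overlapped, the difference was -0.37 ± 0.19 (adjusted p = 0.232), and 3 of 4 mice had less in CD117pos. The other heavy chain, Slc3a1, which serves cystine uptake in kidney, was dim and did not pass (difference 0.49 ± 0.40, adjusted p = 0.456, and -0.026 without mouse _951). Its CD117pos value was 90.1 in mouse _951 and 10.9 to 16.1 in the other mice.

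Slc1a5 (Entrez gene 20514), the ASCT2 carrier that brings glutamine into dividing cells, was the Slc1 member that passed, with 351, 273, 242 and 349 in the CD117pos arrays, against 201, 175, 167 and 226 in the CD117neg arrays. All CD117pos arrays lay above all CD117neg arrays, and the differences within mice were close to each other (0.76, 0.60, 0.49 and 0.59). Slc1a5 rose by 0.61 ± 0.11 (limma, adjusted p = 0.015), a 1.53-fold rise. The call ended without mouse _948, _952 or _953 (adjusted p = 0.0847, 0.0618 and 0.0706). Averaging its 2 probe sets also ended it (adjusted p = 0.375), since the second had a large error (0.41 ± 0.69). The other 6 Slc1 genes, most of them glutamate carriers of nerve and glia, were dim, with means over the 8 arrays of at most 33.8 and differences of -0.18 to 0.39.

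Of 5 cationic carriers, Slc7a1 (Entrez gene 11987), the CAT-1 carrier that brings arginine and lysine into most cells, passed by a narrow margin. Its intensities were 2547, 2707, 2166.4 and 2344 in the CD117pos arrays, against 1035, 1819, 1499 and 1813 in the CD117neg arrays. The fractions did not overlap, and mouse _948 had the lowest CD117neg value and the largest difference. Slc7a1 rose by 0.69 ± 0.18 (limma, adjusted p = 0.0465), a 1.61-fold rise, and was the member just inside the threshold. A second probe set rose by 0.75 ± 0.14 (adjusted p = 0.0204) and another, dim one differed by -0.12 ± 0.16. Leaving out any 1 of the mice _948, _951, _952 and _953 ended the call (adjusted p = 0.118, 0.0521, 0.124 and 0.0964), as did a pseudocount of 1 (adjusted p = 0.0885) and the mean of its probe sets (adjusted p = 0.0522). The member just outside the threshold was Slc7a14, a carrier known from nerve cells, which was dim in both fractions (17.2 ± 11.9 in CD117pos and 5.57 ± 3.44 in CD117neg arrays, difference 0.58 ± 0.16, adjusted p = 0.056). Slc7a14 passed with a pseudocount of 1, after quantile normalisation, after centring and with an intensity trend (adjusted p = 0.0367, 0.0402, 0.0297 and 0.0471). Slc7a2, the arginine carrier CAT-2, had 56.2, 8.34, 94.8 and 87.2 in the CD117pos arrays, against 13.5, 13.8, 30.4 and 30.5 in the CD117neg arrays. It was higher in 3 of 4 CD117pos arrays and did not pass over all arrays (difference 0.85 ± 0.30, adjusted p = 0.101), but passed without mouse _951 (1.23, adjusted p = 0.00183).

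In the Slc38 family, 2 of 9 genes fell and 0 rose, with a median difference of -0.29, beside 13.8% and 8.27% of all genes. With 9 genes, these counts do not set the family apart. Slc38a6 (Entrez gene 625098), a carrier linked to glutamine and glutamate, had 252, 142, 304 and 247 in the CD117pos arrays, against 625, 615, 652 and 646 in the CD117neg arrays. The CD117neg arrays were close to each other, and all CD117pos arrays lay below them. Slc38a6 differed by -1.41 ± 0.18 (limma, adjusted p = 0.00556), a 2.66-fold lower level, and its call held in all 14 alternatives. Slc38a9 (Entrez gene 268706), the lysosomal membrane protein that reports arginine to mTORC1, had 242, 215, 246 and 318 in the CD117pos arrays, against 421, 343, 378 and 419 in the CD117neg arrays. The fractions did not overlap, and the difference was -0.59 ± 0.12 (limma, adjusted p = 0.0203). Of its 7 probe sets, 2 fell and the others did not pass, with differences from -0.47 ± 0.14 and -0.47 ± 0.19 to 0.24 ± 0.15. The Slc38a9 call ended with a pseudocount of 1 (adjusted p = 0.0523), with the mean of all probe sets (-0.32, adjusted p = 0.1), without probe sets of shared sequence (adjusted p = 0.0613) and on leaving out mouse _948, _952 or _953 (adjusted p = 0.103, 0.0911 and 0.0578).

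Slc38a2, the SNAT2 carrier that cells make more of when amino acids run short, had 2224, 2368, 2530.5 and 2606 in the CD117pos arrays, against 2919, 3927, 2937 and 3269 in the CD117neg arrays. Every CD117pos array lay below every CD117neg array, yet the difference of -0.41 ± 0.13 did not pass (adjusted p = 0.078). Its 2 dimmer probe sets did pass, with -0.66 ± 0.12 (adjusted p = 0.0165) and -0.58 ± 0.13 (adjusted p = 0.031), and with the mean of the 3 probe sets the gene passed too (-0.55, adjusted p = 0.017). It passed as well with a pseudocount of 64, without dim genes and with an intensity trend (adjusted p = 0.0425, 0.0484 and 0.0351). Slc38a10, a less studied member, measured 1267 ± 169 in CD117pos and 1741 ± 336 in CD117neg arrays (adjusted p = 0.121). Slc38a1, the SNAT1 glutamine carrier, measured 1261 ± 264 in CD117pos and 1374 ± 87.2 in CD117neg arrays, a difference of -0.14 ± 0.14 (adjusted p = 0.537) whose sign turned after quantile normalisation (0.077).

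**Figure D2:**
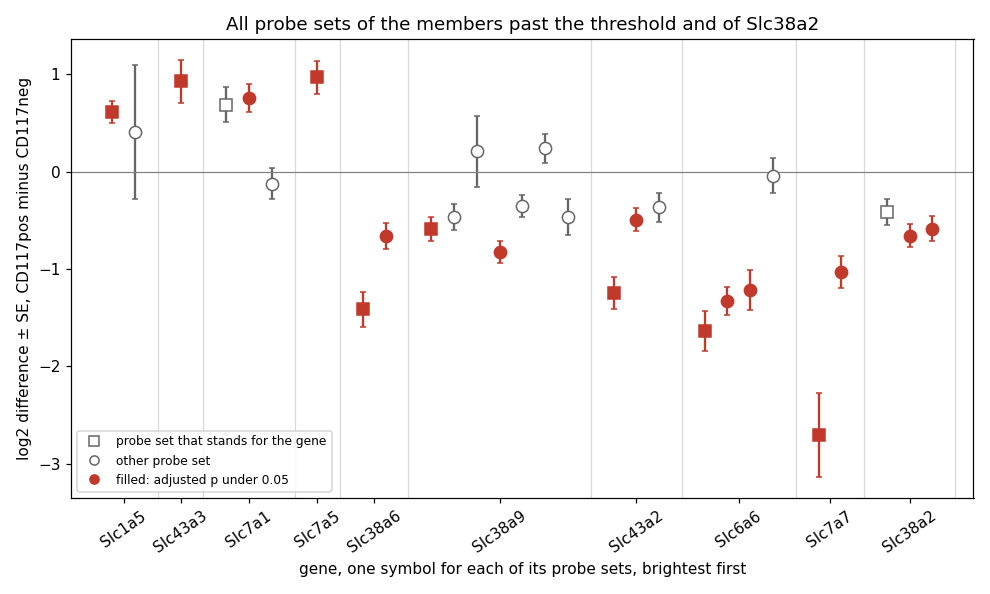
Log2 difference (CD117pos minus CD117neg, ± SE) of every probe set of the 9 genes past the threshold and of Slc38a2, with the probe set that stands for the gene as a square and the others as circles, brightest first. Filled symbols passed when adjusted over all 45037 probe sets, of which 16.5% passed, and the probe set that stands for Slc7a1 did not (adjusted p = 0.0535). Counting only probe sets that passed, 0 of the 63 members had some that rose and others that fell. Probe sets that did not pass could have the other sign, as for Slc7a1 and Slc38a9.

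In the Slc43 family, 1 of 3 genes rose and 1 fell, beside 8.27% and 13.8% of all genes. Slc43a2 (Entrez gene 215113), the LAT4 carrier of branched-chain amino acids, phenylalanine and methionine, had 486, 379, 581 and 636 in the CD117pos arrays, against 1706, 853, 1259.8 and 1276 in the CD117neg arrays. The fractions did not overlap, and mouse _951 was lowest in both. Slc43a2 differed by -1.25 ± 0.17 (limma, adjusted p = 0.00621), a 2.38-fold lower level, and its second probe set fell less (-0.49 ± 0.12, adjusted p = 0.0422). Slc43a3 (Entrez gene 58207), known in human cells as a carrier of purine bases and not of amino acids, had 943, 403, 1057 and 1135 in the CD117pos arrays, against 384, 365, 529 and 439.5 in the CD117neg arrays. In 3 mice the CD117pos array lay far above all CD117neg arrays, while in mouse _951 the 2 arrays were close. The difference was 0.93 ± 0.23 (limma, adjusted p = 0.0363) over all mice and 1.19 (adjusted p = 0.00298) without mouse _951. The call ended without mouse _948, _952 or _953 (adjusted p = 0.15, 0.132 and 0.146), without the block (adjusted p = 0.0648) and with a pseudocount of 1 (adjusted p = 0.0696). Slc43a1 (LAT3), chosen after its values were seen, did not pass (47.9 ± 10.3 in CD117pos and 41.8 ± 6.39 in CD117neg arrays, adjusted p = 0.448).

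Of 20 genes of the Slc6 family, 1 fell and 0 rose, beside 13.8% and 8.27% of all genes. Slc6a6 (Entrez gene 21366), the carrier of the osmolyte taurine, had 1109, 539, 777 and 927 in the CD117pos arrays, against 2397, 2721, 2270.4 and 2879 in the CD117neg arrays. All CD117pos arrays lay far below the lowest CD117neg array. Slc6a6 differed by -1.64 ± 0.21 (limma, adjusted p = 0.00555), a 3.11-fold lower level, and its call held in all 14 alternatives. Of its 4 probe sets 3 fell, the dimmer ones with differences of -1.33 ± 0.15 (adjusted p = 0.00413) and -1.22 ± 0.20 (adjusted p = 0.0136). Slc6a13, a carrier of GABA and taurine in liver and kidney, had 565, 3.20, 427 and 683 in the CD117pos arrays, against 574, 256.7, 399.9 and 508 in the CD117neg arrays. Its 2 fractions overlapped apart from the CD117pos array of mouse _951, which was near 0. The difference was -0.84 ± 0.73 (adjusted p = 0.488) over all mice and 0.16 (adjusted p = 0.43) without mouse _951. The other 18 Slc6 genes, most of them carriers of nerve, kidney or gut, did not pass.

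None of the 4 Slc36 genes passed with the intensities as deposited and all 8 arrays (lowest adjusted p = 0.11). Slc36a1, the PAT1 carrier that releases small amino acids from lysosomes, measured 225 ± 87.4 in CD117pos and 314 ± 81.7 in CD117neg arrays (difference -0.51 ± 0.30, adjusted p = 0.302). Slc36a4, a related carrier of endosomes and lysosomes, had 687, 528, 782 and 556 in the CD117pos arrays, against 346, 576, 445 and 359 in the CD117neg arrays. It was higher in CD117pos in 3 mice and not in mouse _951, with a difference of 0.56 ± 0.20 (adjusted p = 0.11) over all mice and 0.79 (adjusted p = 0.00887) without mouse _951. Slc36a4 also passed over all arrays after quantile normalisation (0.74, adjusted p = 0.0365) and in the fit that drops both the block and the c-kit-high array of that mouse (0.64, adjusted p = 0.04). Slc36a2, a glycine and proline carrier of kidney, had 188, 41.0, 391 and 344 in the CD117pos arrays, against 71.9, 156, 290.1 and 141 in the CD117neg arrays. Mouse _951 alone had less in CD117pos. The gene differed by 0.31 ± 0.49 (adjusted p = 0.713) over all mice and by 0.94 (adjusted p = 0.0208) without mouse _951. Among the 3 genes that are not carriers, by the brightest probe set, Slc6a19os had the largest difference (-0.48 ± 0.17, adjusted p = 0.107). The dimmer probe set of Slc7a6os differed by more and passed (0.75 ± 0.16, limma, adjusted p = 0.0301 over all probe sets). With the mean of its probe sets Slc7a6os was called higher too. The 41 members that the rule for named genes left out, among them Slc7a11 and Slc43a1, had differences of -0.58 to 0.46 and adjusted p of at least 0.0787.

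**Figure D3:**
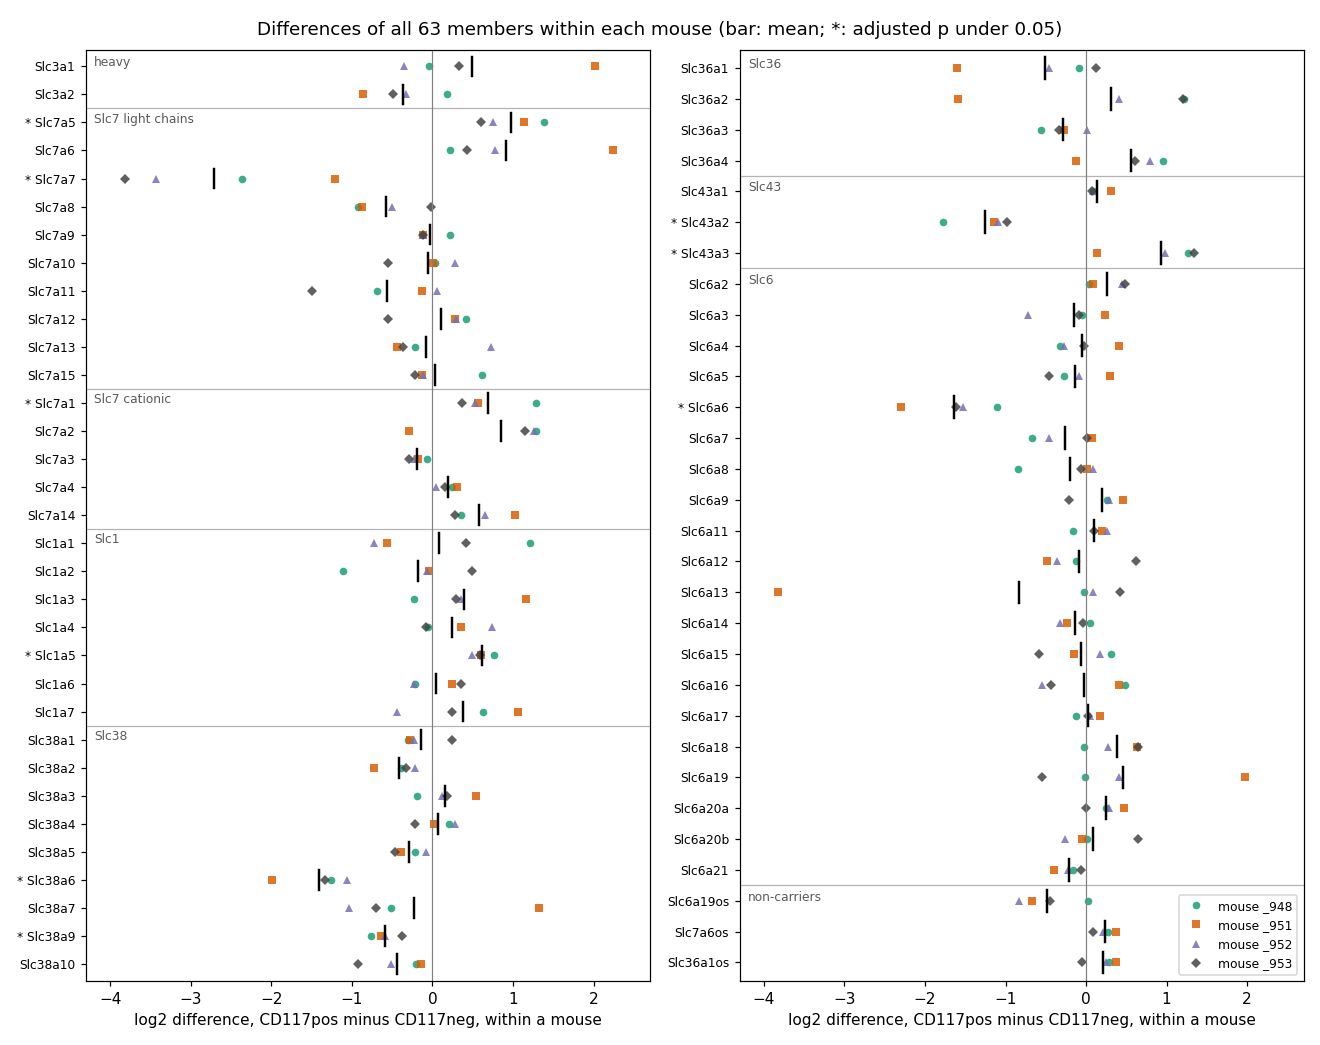
Log2 difference (CD117pos minus CD117neg, horizontal axis) of all 63 members within each mouse, grouped by family, with 1 marker per mouse, a black bar at the mean and a star at the 9 genes past the threshold. Mouse _951 lies far from the other mice for Slc6a13, Slc7a6, Slc3a1, Slc6a19, Slc36a2 and Slc38a7, among others.

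Mouse _951 differed from the others at several members, and these are given as values because its CD117pos array stood apart as a whole. Slc38a7, a glutamine carrier of lysosomes chosen here after its values were seen, measured 362 in that array, against 77.4 to 97.5 in the other CD117pos arrays and 135 to 175 in CD117neg arrays. Slc6a19, a neutral amino acid carrier of gut and kidney chosen in the same way, had 36.1, 195, 49.5 and 35.4 in the CD117pos arrays, against 36.3, 37.7, 33.1 and 58.9 in the CD117neg arrays. Neither passed over all arrays (adjusted p = 0.737 and 0.492). With the CD117pos array of mouse _951 left out, and no block in the fit, 5 transporters were higher and 7 lower, and 28.2% of all genes passed. The higher ones were then Slc7a1, Slc1a5, Slc43a3, Slc36a4 and Slc7a2, and the lower ones Slc7a7, Slc6a6, Slc38a6, Slc43a2, Slc38a9, Slc38a7 and Slc38a10. Differences between mice that both fractions share passed for 0 of 63 members (limma's moderated F-test of the mouse terms, lowest adjusted p = 0.563), with 4 members at an unadjusted p under 0.05. They also passed for 0 of all named genes, with 1386 at an unadjusted p under 0.05. The F-test does not measure a departure of 1 array alone, such as the CD117pos array of mouse _951.

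The genes around the transporters were read from 5 lists with 127 measured genes, of which 8 rose and 28 fell (20 and 17 after quantile normalisation, 14 and 18 after centring). Together 28.3% passed, beside 22.1% of all genes. The listed genes were brighter than most, and in the fit restricted to genes with a mean of at least 50, 38.5% of the 109 that remained passed, below the 43.1% of all genes. Beside 8.27% and 13.8% of all genes, 5 of 30 genes of amino acid synthesis and breakdown rose and 5 fell (median difference 0.19). Those that rose were Shmt1 and Shmt2, the enzymes that turn serine into glycine, Psph, the last enzyme of serine synthesis, Odc1, which makes putrescine from ornithine, and Gpt, an alanine transaminase. Shmt1 measured 1262 ± 229 in CD117pos and 520.0 ± 124 in CD117neg arrays (difference 1.27 ± 0.13, limma, adjusted p = 0.00298), Psph 508 ± 97.3 in CD117pos and 251 ± 27.2 in CD117neg arrays (0.96 ± 0.15, adjusted p = 0.00921) and Shmt2 949 ± 242 in CD117pos and 521 ± 77.7 in CD117neg arrays (0.83 ± 0.18, adjusted p = 0.0278). Those that fell were Arg2, the mitochondrial arginase, Glud1 and Glul, which handle glutamate and glutamine, Bcat2, a branched-chain transaminase, and Aldh4a1, of proline breakdown. Arg2 measured 7.49 ± 3.44 in CD117pos and 146 ± 126 in CD117neg arrays (-2.45 ± 0.51, adjusted p = 0.0232). Leaving out 1 mouse at a time, in the order of the mice above, 3, 8, 3 and 3 genes rose and 1, 5, 0 and 0 fell. The balance also moved with scaling, to 10 that rose and 1 that fell after quantile normalisation, and 7 and 3 after centring. Of the 14 alternatives, 5 ended the call of Shmt2, 3 that of Arg2, 2 that of Psph and 0 that of Shmt1.

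While 13.8% of all genes fell, 10 of 22 did in the list for the amino acid stress response of Atf4, and 0 rose. The median difference of the list was -0.41. After quantile normalisation 5 fell, after centring 5, and with 1 mouse left out at a time (_948 first, _953 last) 3, 10, 3 and 4. Nupr1, a stress-induced chromatin protein whose promoter is printed above, had 39.0, 4.74, 19.3 and 12.5 in the CD117pos arrays, against 560.2, 258, 431 and 596 in the CD117neg arrays, with no overlap (difference -3.80 ± 0.19, limma, adjusted p = 0.000472). Ddit4, an inhibitor of mTORC1, differed by -2.32 ± 0.32 (adjusted p = 0.00676), Gadd45a, a gene of growth arrest, by -1.59 ± 0.19 (adjusted p = 0.00461), and Jdp2, an AP-1 repressor, by -0.87 ± 0.22 (adjusted p = 0.0421). The Jdp2 call ended in 8 of the 14 alternatives (adjusted p up to 0.207), and the calls of Nupr1, Ddit4 and Gadd45a in 0. Also lower past the threshold were Atf3, Cebpb, Eif2ak1, Eif2ak3, Ppp1r15a and Ppp1r15b. The list holds Atf4 itself and genes that act upstream of it, such as the kinase genes Eif2ak1 and Eif2ak3. Its falls are therefore not a count of genes that Atf4 drives. Several of the listed genes answer to other signals as well. Atf4 itself (2247 ± 292 in CD117pos and 2767 ± 324 in CD117neg arrays) and its targets Trib3, Chac1 and Asns, the asparagine synthetase gene of the synthesis list, did not pass (adjusted p = 0.246, 0.308, 0.436 and 0.0754). All 4 were picked with their values in view.

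Among 38 genes by which mTORC1 senses amino acids, 2 rose and 7 fell, with a median of -0.13. Over all genes 8.27% rose and 13.8% fell, so that these counts do not set the list apart. The 7 were Tfe3, Mitf, Bmt2, Castor1, Castor2, Rragc and Lamtor1. Tfe3 and Mitf are transcription factors of the lysosome, and Bmt2 is the S-adenosylmethionine sensor. Castor1 is an arginine sensor, Castor2 its relative, and Rragc and Lamtor1 belong to the lysosomal docking complex. Tfe3 had 149, 58.2, 168 and 160.0 in the CD117pos arrays, against 564, 514, 536 and 564 in the CD117neg arrays and differed by -1.99 ± 0.23 (limma, adjusted p = 0.00439), Bmt2 by -1.62 ± 0.28 (adjusted p = 0.0126), Mitf by -1.47 ± 0.19 (adjusted p = 0.00543) and Castor2 by -1.07 ± 0.19 (adjusted p = 0.0135). The 2 that rose were Lamtor2 (0.93 ± 0.16, adjusted p = 0.0137), also of the docking complex, and Seh1l (0.42 ± 0.11, adjusted p = 0.0482), of the complex that Castor proteins bind. Mtor itself measured 648 ± 106 in CD117pos and 712 ± 62.4 in CD117neg arrays (adjusted p = 0.479). After quantile normalisation 7 rose and 5 fell, after centring 5 and 5, and with 1 mouse left out at a time 0, 1, 0 and 0 rose and 3, 11, 5 and 3 fell. The calls of Bmt2 and Castor2 each ended without mouse _948 (adjusted p = 0.0572 and 0.0695) and without mouse _953 (adjusted p = 0.0589 and 0.0706).

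Of 24 genes in the list of amino acid and peptide carriers from other SLC families, 6 fell and 0 rose, with a median of -0.12, where 13.8% of all genes fell and 8.27% rose. Slc15a3, a carrier of peptides and histidine in lysosomes of phagocytes, had 25.5, 18.1, 64.5 and 45.8 in the CD117pos arrays, against 1001, 1016, 1929 and 1667 in the CD117neg arrays. The fractions did not overlap, and the difference was -4.73 ± 0.12 (limma, adjusted p = 0.000152). Slc29a3, in fact a lysosomal carrier of nucleosides, differed by -1.47 ± 0.22 (adjusted p = 0.00876). The mitochondrial carriers Slc25a22, of glutamate, and Slc25a38, of glycine, differed by -0.75 ± 0.16 and -0.65 ± 0.13 (adjusted p = 0.0258 and 0.0198). With 1 mouse left out at a time, 2, 6, 2 and 1 fell. The calls of Slc25a22, Slc25a38 and Slc29a3 ended in 4, 3 and 1 of the 14 alternatives. In glutathione synthesis and its cycle, 1 of 13 genes rose and 0 fell, again beside 8.27% and 13.8% of all genes. It was Lap3, a leucine aminopeptidase (0.87 ± 0.17, adjusted p = 0.0176), whose call ended without mouse _948 or _953 (adjusted p = 0.0609 and 0.0767). No gene of this list fell over all arrays, but some did without mouse _951. Its CD117pos array measured 1096 for Gss, against 127 to 138 in the other CD117pos arrays, and 1728 for Ggt5, against 237 to 312. Both genes, picked with their values in view, were lower in CD117pos in every other mouse.

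**Figure D4:**
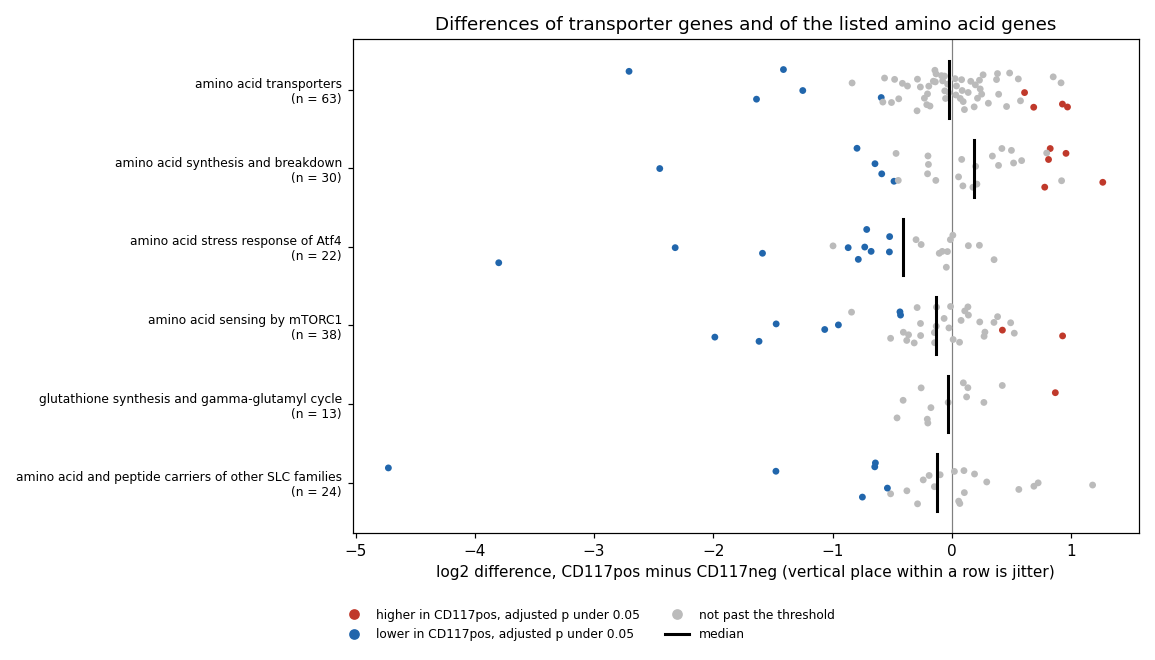
Log2 difference (CD117pos minus CD117neg, horizontal axis) of the 63 transporter genes and of the genes of 5 lists, 1 point per gene, red where higher and blue where lower with adjusted p under 0.05, and a black bar at each median. The list of the Atf4 response has blue points and no red ones, and its farthest blue point is Nupr1.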

How the data were processed

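Affymetrix arrays of 1 colour measured transcripts in 4 CD117pos and 4 CD117neg fractions. Per the labels' protocols, 2 cycles of amplification and a biotin label prepared the RNA. The authors deposited 1 linear intensity per probe set, for 45101 probe sets. How probes were summarised and arrays scaled is not stated in the sources used here. On each array 841 to 898 values stood at exactly 1. Arrays have no read depth, and their number limits the precision.

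Names came from the annotation of the platform. Of the probe sets other than controls, 34945 had 1 symbol, 932 several and 9160 none listed, and Entrez identifiers of 34741 matched a current gene table. The brightest probe set of a gene, by its mean over 8 arrays, stood for it. Intensities were used as deposited, as log2(intensity + 16), and fitted with limma 3.58.1 in R 4.3.3 (lmFit, eBayes, two-sided, Benjamini-Hochberg over 18193 genes), with the mouse as a block, since the design text says each mouse gave both fractions. Deviations from the fraction means correlated across genes within mice at 0.12 to 0.27 (mice _948 to _953), and with arrays of other mice at up to 0.11. Array measures were compared by exact permutation within mice (16 arrangements, smallest p 0.125), and array medians gave p = 0.125. The fit was tested on simulated data. Python 3.11.15 and matplotlib 3.10.9 drew the figures.

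Alternatives were pseudocounts of 1 and 64, leaving out genes with a mean under 50, quantile normalisation, centring, no block, the mean of all probe sets, no probe sets of shared sequence, an intensity trend, leaving out each mouse, and leaving out the CD117pos array of mouse _951. Named were Kit, members past the threshold, other members with a mean of at least 200, the largest difference of each family, the members next to the threshold and the 4 largest differences past it per list. Other genes were named after their values were seen. The transporters, the lists and the tests were chosen with earlier results of these data known. Sequences are from RefSeq. No coordinates of probe sets are printed, because no genome build is named for the array.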

Additional observations from a re-analysis of the deposited data

Results flagged for a closer look

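In groups of 4 arrays, 6 values lay far from the other 3 of their fraction by Dixon's criterion at the 95% level, among 46 groups of named genes and the array measures. Chance flags about 1 in 20 groups. The CD117pos array of mouse _951 held 4 of the 6. Its 3′ to 5′ ratio was 5.4373 for Gapdh, against 2.56 to 2.77 in the other CD117pos arrays, and 3.2128 for Actb, against 1.72 to 1.91. In the same array Slc3a1 measured 90.132, against 10.9 to 16.1, and Slc6a13 measured 3.201, against 427 to 683. The CD117neg array of mouse _951 had 327.175 for Slc7a7, against 722 to 806 in the other CD117neg arrays. In the CD117neg array of mouse _948 the Gapdh ratio was 2.7599, against 3.16 to 3.23.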

How the results depend on the processing

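Over the 14 alternatives, Slc6a6, Slc43a2 and Slc38a6 kept both direction and call, and none of the 9 transporters past the threshold changed direction. Without the replicate block (the pairing by mouse), 2 transporters were higher and 5 lower, with Slc7a5 and Slc43a3 no longer called. Leaving out 1 mouse at a time gave 0 to 6 higher and 3 to 6 lower transporters, 416 to 2106 and 1181 to 2983 of all genes, and 3 to 11 and 8 to 36 of the 127 listed genes, with the highest counts without mouse _951. Without its CD117pos array and the block, the counts were 5 and 7, 2159 and 2964, and 12 and 35. Quantile normalisation gave 2424 higher genes in all (55.5% of calls, against 37.5% as deposited and 48.2% after centring) and moved the median gene by 0.12 on the log2 scale, centring by 0.093. A pseudocount of 1 gave 992 higher genes. Of the listed genes, 20 were higher and 17 lower after quantile normalisation, 14 and 18 after centring, 13 higher without dim genes, 5 higher without probe sets of shared sequence and 17 lower with a pseudocount of 1. Among the 13 transporters not past the threshold that the naming rule picked, the sign turned for Slc38a1 after quantile normalisation (0.077), for Slc3a1 without mouse _951 (-0.026, the lowest of -0.026 to 0.77 on leaving out 1 mouse) and for Slc6a13 without mouse _951 (0.16, the highest of -1.25 to 0.16) or without its CD117pos array and the block (0.38). The causes were not tested. Values near the floor of 1 limit the dim members, whose differences have no firm size.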
